A study of Danio rerio with 11 samples.

Results

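Whole zebrafish embryos that had been kept with oil emulsion from 24 to 72 h post fertilization (hpf) were compared with unexposed embryos of the same age on Affymetrix zebrafish arrays. Of the 11 arrays of the study, 6 belong to this comparison: 3 exposed and 3 control arrays. Members were chosen by their titles, and the exposed arrays, 1 each for emulsion from Gulfport, Fort Morgan and Perdido Key, were treated as 1 group, so that a difference had to be shared by 3 separately collected oils to stand out from the spread. Each exposed cup held 250 mg of emulsion, 30 embryos and 100 ml of medium; the exposure ran for 48 h, and the RNA of the whole cup went onto 1 array. Control embryos received no emulsion, and the labels give no strain, sex or genotype for any embryo. No site has a repeat array at this age. The labels do not state whether the replicate controls were separate cups or separate spawnings; the p-values therefore cover only the spread among the arrays at hand, which may be technical. Gulfport emulsion was also tested from 0 to 48 hpf (1 exposed and 1 control array) and from 48 to 96 hpf (1 exposed and 2 control arrays), and these arrays, which share none with the 72 hpf comparison, are given beside its results.

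Many hydrocarbons of crude oil bind the aryl hydrocarbon receptor (AHR), a transcription factor that moves to the nucleus with its ligand and switches on cytochrome P450 genes, of which cyp1a is the best known in fish. P450 enzymes add oxygen to the hydrocarbon, conjugating enzymes then attach glucuronic acid, sulfate or glutathione, and transporters carry the product out of the cell. Reactive intermediates of this chain are handled by a second transcription factor, Nrf2, which is held back by Keap1 and drives genes of glutathione synthesis, of NADPH supply and of peroxide removal.

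Probe sets that reached a log2 signal of 6 in any of the 11 arrays, 9803 in number, were tested. At an adjusted p under 0.05 (limma, Benjamini-Hochberg over all 9803), 47 probe sets were higher in exposed embryos (0.479% of those tested) and 9 were lower (0.0918%). The 47 comprised 36 with 1 gene symbol, which gave 32 named genes, 2 with several symbols and 9 with none; the 9 comprised 7 named genes and 2 probe sets with no symbol. Groups without overlap between the 3 exposed and the 3 control values occurred in 678 probe sets in the higher (6.92%) and 645 in the lower direction (6.58%), and all 56 that passed were among these. In 5 of the 56 every one of the 6 control arrays of all ages was below 6. These entered the test only through exposed arrays, the group in which they are high, and include tsku and 1 probe set of cyp1c1. Among the falls, lgals3bp.1, f7i, pde6a and the 2 probe sets with no symbol were below 6 in every exposed array of all ages. They entered only through control arrays, the group in which they are high. The number that passed rested on single arrays. It was 23, 24 and 32 when control replicate 1, 2 or 3 was left out, 28 without Fort Morgan, 45 without Gulfport and 83 without Perdido Key (25 of them lower). Leaving out Gulfport left 7 lower probe sets, and leaving out a control array or Fort Morgan left 1.

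The arrays had similar distributions of signal. Lower quartiles of log2 signal were 4.75 in control replicate 2 and Perdido Key and 4.81 to 4.83 in the other 4 arrays, and the smallest median absolute difference between any pair of the 6 arrays, 0.102, was between these 2. Differences of at least 1 on the log2 scale were found in 21 to 41 probe sets between single control arrays. Between an exposed and a single control array they were found in 179 to 285 for Gulfport, 66 to 139 for Fort Morgan and 57 to 70 for Perdido Key. Against the control mean, Gulfport was at least 1 higher in 140 probe sets and at least 1 lower in 70, Fort Morgan in 40 and 34, and Perdido Key in 36 and 4. With the 2 classes of lower quartile as a block, 43 of the 47 rises and 7 of the 9 falls still passed. Those that did not were msx2b (limma adjusted p = 0.0503), tsku (0.0519), sqor (0.0531) and 1 of the 2 probe sets of selenow2b (0.0503) among the rises, and epd (0.0505) and sox9b (0.0515) among the falls.

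The rises were of like size in the 3 emulsions. Over the 47 probe sets the median difference from the control mean was 1.23 on the log2 scale for Gulfport, 0.97 for Fort Morgan and 1.07 for Perdido Key. Gulfport gave the largest of the 3 differences in 28 probe sets, Perdido Key in 15 and Fort Morgan in 4. The ratio of the smallest to the largest of the 3 log2 differences had a median of 0.745 and ranged from 0.527 to 0.971. Over all 678 probe sets that were higher without overlap this median was 0.447; the test itself favours an even response, so the 2 medians are a description. All 3 emulsions were at least 1 above the control mean in 25 probe sets (0.255%), of which 20 passed, and at least 1 below it in 3 (0.0306%), of which 1 passed. The plot of named genes by role shows each of these differences array by array.

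**Figure D1:**
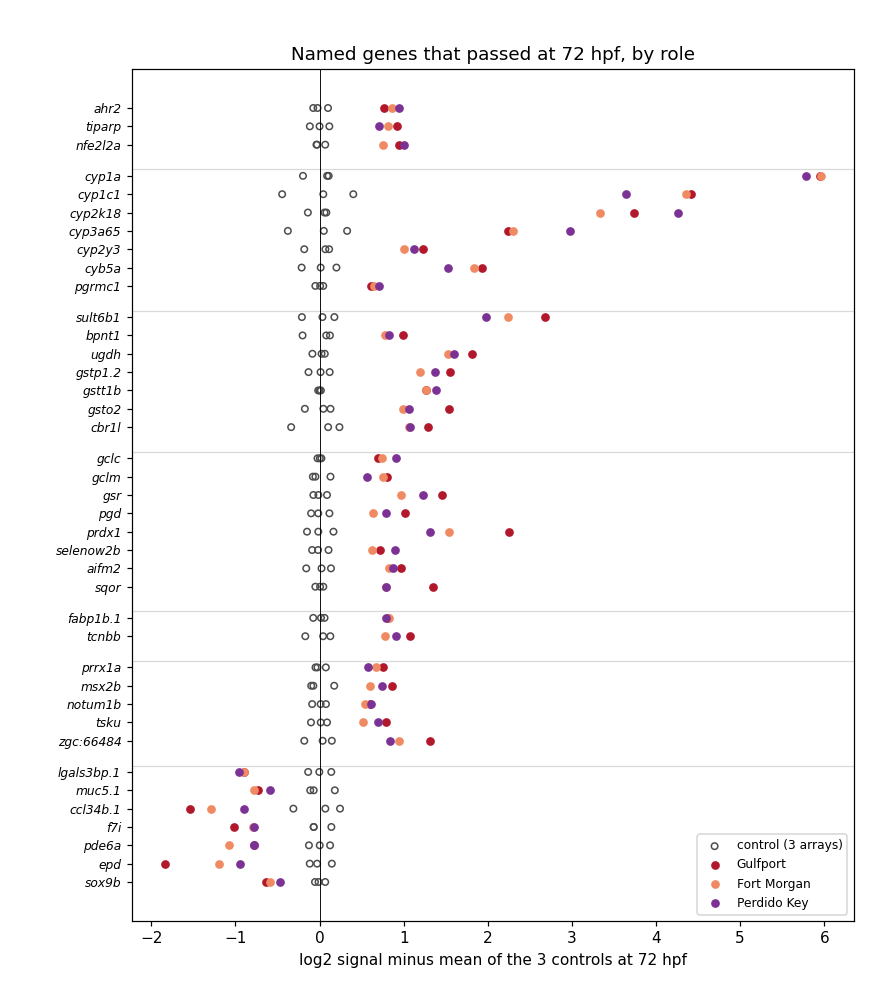
Each row is a named gene that passed at 72 hpf, shown by its probe set of lowest p, and each point is 1 array: its log2 signal minus the mean of the 3 controls. Open circles are controls and filled circles the 3 emulsions, and rules separate the roles. From the top these are regulators of the AHR and Nrf2 pathways, P450 enzymes and partners, conjugation and reduction, and glutathione and redox. Binding proteins, signalling and patterning, and lower genes follow. In no row do exposed and control arrays overlap, and most rises lie between 0.5 and 2.

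Genes of 3 regulators in the AHR and Nrf2 pathways were themselves higher. The gene ahr2, which encodes the receptor that mediates most dioxin effects in zebrafish embryos, measured 7.55, 7.68 and 7.50 in the control arrays and 8.35, 8.44 and 8.52 with Gulfport, Fort Morgan and Perdido Key. All 3 exposed values lay above all controls, a rise of 0.86 on the log2 scale or 1.81-fold (SE 0.09, limma adjusted p = 0.00687). The rise was also present in separate embryos, at 0.78 at 48 hpf and 0.71 at 96 hpf. The gene tiparp, whose product ADP-ribosylates AHR and dampens it in mouse, rose by 0.81 (SE 0.10, limma adjusted p = 0.0153), with exposed values of 8.51, 8.40 and 8.29 against controls of 7.47, 7.71 and 7.59. Nrf2 itself, encoded by nfe2l2a, was at 8.11, 8.12 and 8.22 in controls and at 9.10, 8.90 and 9.16 in exposed embryos. That is a rise of 0.90 (SE 0.10, limma adjusted p = 0.00687), and at 48 and 96 hpf the exposed array was 0.66 and 0.77 higher. A second, dimmer probe set of nfe2l2a differed by 0.32 and did not pass (limma adjusted p = 0.557). Of these 3 genes ahr2 missed the threshold without control replicate 1 (highest adjusted p 0.0536), nfe2l2a without control replicate 1 or 2 (0.0549), and tiparp without control replicate 1 or 3 or Fort Morgan (0.0818). Among the 8 measured genes of the list of AHR, its partners and CYP1 targets, 4 rose. Without overlap 5 were higher (62.5%) and none lower. Over all 6467 genes these shares were 6.82% and 7.22%, which stand beside the counts of every list below. An unadjusted p under 0.05 in limma was found in 572 of the 6467, and 2879 lay above 0. All lists were chosen with earlier results of these data known, so their shares beside those of all genes are a description. The median difference of the AHR list was 0.61 against -0.02 over all genes. The medians were 0.60, 0.60 and 0.57 for the 3 emulsions in the order above.

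P450 enzymes gave the widest differences. The reference gene cyp1a went from a control mean of 7.04 to an exposed mean of 12.94, and its 3 exposed values lay within 0.17 of each other. Its relative cyp1c1 was represented by 2 probe sets. In the first it measured 6.42, 5.92 and 6.24 in controls and 10.62, 10.16 and 9.49 in exposed arrays, and in the second, with dim controls of 4.41, 4.05 and 3.56, it was at 8.42, 8.36 and 7.64 (limma adjusted p = 0.000503). Both probe sets placed Perdido Key lowest of the emulsions, at 3.29 and 3.64 above the control mean. The gene cyp2k18, a member of the CYP2 family, was highest with Perdido Key. Its controls were dim, at 3.97, 3.75 and 3.95, and it reached 7.63 with Gulfport, 7.23 with Fort Morgan and 8.15 with Perdido Key, a difference of 3.78 (SE 0.21, limma adjusted p = 0.000429). The CYP3A gene cyp3a65, which is expressed in larval liver and intestine, rose in 1 of its 2 probe sets, from 5.11, 4.68 and 5.39 to 7.30, 7.35 and 8.03 (a 5.67-fold rise, limma adjusted p = 0.00335), again with Perdido Key highest. In its other, brighter probe set the difference was 1.31 and did not pass (limma adjusted p = 0.0919). A further gene outside the CYP1 family, cyp2y3, rose 2.17-fold with exposed values of 8.18, 7.96 and 8.07 (difference 1.12, SE 0.11, limma adjusted p = 0.00456), while its second, dimmer probe set differed by 0.86 and did not pass (0.105). Of the 16 measured P450 genes outside the CYP1 family, 5 were higher without overlap and none lower, and the list median was 0.01.

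The CYP1, CYP2 and CYP3 genes were set side by side across ages. At 48 hpf, after exposure from fertilization, cyp1a and cyp1c1 were 6.30 and 4.15 above the control array. By contrast, cyp2k18 was 0.04 above it and the probe set of cyp3a65 that passed was 0.03 below it. The brighter probe set of cyp3a65 was 0.12 above it. Not all genes outside the CYP1 family were as close, since cyp2y3 was 0.60 above the control array, and 0.47 in its dimmer probe set. At 96 hpf, cyp2k18 stood at 9.26 against controls of 5.85 and 6.15, and cyp3a65 at 10.43 against 8.46 and 8.77. In control embryos both genes were higher at 96 than at 72 hpf, by 2.11 and 3.56 (2.32 in the brighter probe set of cyp3a65). The difference between the ages was not tested, since at 48 hpf each side has 1 array and the windows of exposure differ.

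Partners of the P450 enzymes also rose. Cytochrome b5, encoded by cyb5a, donates electrons to P450 enzymes, and it measured 7.82, 7.59 and 8.01 in controls and 9.74, 9.65 and 9.33 in exposed arrays (difference 1.77, SE 0.14, limma adjusted p = 0.00166). The heme-binding membrane protein gene pgrmc1, whose product associates with P450 enzymes, rose by 0.66 in 1 of 2 probe sets (SE 0.08, limma adjusted p = 0.0154); the brighter one differed by 0.53 and did not pass (0.0639). In the list of redox partners and heme synthesis, cyb5a was the only one of 13 genes whose representative probe set passed, and 4 were higher without overlap (median 0.03). The heme synthesis gene alas1 measured 10.45, 10.11 and 10.02 in exposed arrays against 9.45 to 9.66 in controls without passing (difference 0.62, limma adjusted p = 0.143). At 96 hpf it stood further apart, at 11.67 in the Gulfport array against controls of 10.33 and 10.38 (difference 1.31).

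Genes of all 3 main routes of conjugation rose. For glucuronidation, ugdh makes the UDP-glucuronic acid that the transferases use. Its 2 probe sets rose by 1.65 and 1.25 (SE 0.10 in both, limma adjusted p = 0.000503 and 0.0017), and in the brighter the exposed values were 9.02, 8.74 and 8.80 against 7.23, 7.12 and 7.27. At 48 hpf this difference was 0.29, and at 96 hpf it was 1.12. Of 3 measured genes of the glucuronidation list, ugdh passed and ugp2b was higher without overlap. For sulfation, the sulfotransferase gene sult6b1 measured 8.79, 8.41 and 8.65 in controls and 11.29, 10.85 and 10.60 with the emulsions, a 4.92-fold rise. The nucleotidase gene bpnt1, whose product clears the spent sulfate donor, rose by 0.87 (SE 0.11, limma adjusted p = 0.0191). Of 9 measured genes of the sulfotransferase list, which also includes synthases of the sulfate donor, sult6b1 alone passed. Without overlap 1 was higher and 2 were lower, and the median was -0.11.

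For conjugation with glutathione, 3 of 9 measured transferase genes rose and the median over the 9 was -0.01. The gene gstt1b had the narrowest groups, with controls at 7.93, 7.90 and 7.92 and exposed arrays at 9.18, 9.18 and 9.30 (difference 1.31, SE 0.08, limma adjusted p = 0.000503). The pi-class gene gstp1.2 rose from 11.17, 11.03 and 11.28 to 12.71, 12.36 and 12.53, and the omega-class gene gsto2 from 8.84, 8.54 and 8.76 to 10.25, 9.71 and 9.77. Without any one of the 3 control arrays gsto2 missed the threshold (highest limma adjusted p 0.0871). The carbonyl reductase gene cbr1l, whose family reduces ketones and quinones, rose by 1.14 (SE 0.15, limma adjusted p = 0.0202). It was the only one of 22 aldehyde, ketone and alcohol enzymes to pass, and 3 were higher and 4 lower without overlap (median -0.03).

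Genes for both the synthesis and the recycling of glutathione rose. Both subunits of glutamate-cysteine ligase, the first enzyme of glutathione synthesis, passed. The catalytic subunit gene gclc measured 7.82, 7.77 and 7.80 in controls and 8.50, 8.54 and 8.71 in exposed arrays (difference 0.78, SE 0.09, limma adjusted p = 0.00965). The modifier subunit gene gclm rose by 0.71 (SE 0.10, limma adjusted p = 0.0298). Glutathione reductase, which regenerates reduced glutathione, is encoded by gsr, and this gene went from 7.18, 7.02 and 7.08 to 8.55, 8.06 and 8.32 (difference 1.22, SE 0.13, limma adjusted p = 0.00687). In the list of Nrf2, Keap1 and glutathione supply, 4 of 16 genes passed, 9 were higher (56.25%) and none lower without overlap. The list median was 0.49, and 0.59, 0.29 and 0.43 in Gulfport, Fort Morgan and Perdido Key. The autophagy receptor gene sqstm1 was 2.01, 0.99 and 0.82 above the control mean in the 3 emulsions, an uneven response that did not pass (limma adjusted p = 0.172).

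Further redox genes passed singly. The pentose phosphate enzyme gene pgd, which yields NADPH, rose by 0.82 with exposed values of 9.78, 9.40 and 9.55 (SE 0.12, limma adjusted p = 0.0288), and in its list of 13 genes 6 were higher without overlap and 1 lower. The peroxiredoxin gene prdx1, which removes peroxides, rose by 1.70 and 1.52 in 2 of its probe sets (limma adjusted p = 0.0187 and 0.0464), while the brightest differed by 1.44 (0.0722). In the first of these, exposed values were 9.73, 9.02 and 8.80 against controls of 7.65, 7.33 and 7.47, so Gulfport led. The selenoprotein W gene selenow2b rose by 0.75 and 0.83 in 2 probe sets. The gene aifm2, whose human product reduces coenzyme Q in membranes and limits lipid peroxidation, rose by 0.89 (SE 0.10, limma adjusted p = 0.00965). The mitochondrial sulfide oxidoreductase gene sqor rose by 0.97 (SE 0.15, limma adjusted p = 0.0401), with Gulfport at 8.64 and the other two at 8.09 and 8.08. In the list of 26 thioredoxin, peroxiredoxin and other antioxidant genes no representative probe set passed in limma, 5 had an unadjusted p under 0.05, and 6 were higher and none lower without overlap (median 0.02). Its thioredoxin gene txnb measured 9.97, 9.15 and 8.93 in exposed arrays and 8.06 to 8.34 in controls (difference 1.18, limma adjusted p = 0.139). When each of the 6 arrays was left out in turn, gclm, pgd and bpnt1 missed the threshold in 5 fits, gclc, prdx1, sqor and pgrmc1 in 4, cbr1l in 3 and aifm2 in 1. Both probe sets of selenow2b missed it in at least 4, whereas gsr, cyb5a, sult6b1, gstp1.2, gstt1b, ugdh and the P450 probe sets that passed did so in all 6.

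Beyond xenobiotic enzymes, 2 genes for binding proteins passed. The fatty acid binding protein gene fabp1b.1, expressed in intestine and liver, measured 12.13, 12.15 and 12.11 in the exposed arrays against 11.38, 11.25 and 11.34 in controls. The 3 emulsions agreed closely, and the rise was 0.81 (SE 0.08, limma adjusted p = 0.00543). It passed in all 6 fits that left out 1 array. The transcobalamin gene tcnbb, whose product binds vitamin B12, rose by 0.92 (SE 0.12, limma adjusted p = 0.0154) and missed the threshold without control replicate 1 or 2.

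Several genes of development rose by smaller amounts. The mesenchymal homeobox gene prrx1a rose by 0.67 (limma adjusted p = 0.0202), with exposed values of 8.73, 8.64 and 8.55 above controls of 7.93 to 8.05. The homeobox gene msx2b rose by 0.73 (0.0364), and at 48 and 96 hpf it was 0.72 and 0.86 higher than its controls. The gene notum1b, whose product inactivates Wnt ligands, rose by 0.58 (limma adjusted p = 0.0309), and tsku, which encodes the secreted regulator Tsukushi, by 0.67 (0.0395) at signals below 6 at this age; it reached 6 only in the Gulfport array at 96 hpf. These 3 lost their call in each of the 6 fits that left out 1 array, and prrx1a in 5 of them. The gene zgc:66484, for which the sources give no function, rose by 1.03 (limma adjusted p = 0.0226) and missed the threshold in 4 of these fits. Among probe sets with no symbol, DrAffx.2.65.A1_at rose by 1.75 (limma adjusted p = 0.0047) and DrAffx.2.29.S1_at by 2.17 (0.00181); no control array of any age reached 6 in either.

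The 7 named genes that fell belong to several tissues. The galectin-binding protein gene lgals3bp.1 was the most even of them, at 5.40, 5.40 and 5.34 in exposed arrays against 6.29, 6.16 and 6.44 in controls (difference -0.92, SE 0.10, limma adjusted p = 0.00628). It was the only fall that passed in all 6 fits that left out 1 array, and it differed by -0.81 at 48 hpf and by -0.65 at 96 hpf. No exposed array of any age reached 6 in it, so it entered the test only through controls. The mucin gene muc5.1 measured 7.28, 7.23 and 7.42 with the emulsions and 7.90, 8.19 and 7.94 without (difference -0.70, limma adjusted p = 0.0391); a second probe set differed by the same -0.70 and did not pass (0.0952). The chemokine gene ccl34b.1 measured 5.15, 5.40 and 5.80 against 6.38, 6.94 and 6.76 (difference -1.24, limma adjusted p = 0.0378). These 3 belong to the list of myeloid, mucosal and secreted immune genes, which was chosen with earlier results of these data known. Of its 22 measured members 7, these 3 among them, were lower without overlap (31.8%, against 7.22% of all genes). None was higher without overlap, but 9 of the 22 lay above 0, and differences in the list ranged from -1.24 to 1.86. The list median was -0.04, and a further member, the complement gene cfd, differed by -0.64 without passing (limma adjusted p = 0.1).

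Among the other falls, f7i, which encodes a relative of coagulation factor VII, measured 4.26, 4.48 and 4.50 against 5.21, 5.42 and 5.21 (difference -0.87, limma adjusted p = 0.0143). It reached 6 only in control replicate 1 at 96 hpf (6.13). The ependymin gene epd, which encodes a secreted glycoprotein of the brain fluid, was 7.87 with Gulfport, 8.51 with Fort Morgan and 8.76 with Perdido Key, below controls of 9.59, 9.68 and 9.85 (difference -1.33, SE 0.21, limma adjusted p = 0.0401). The transcription factor gene sox9b, which acts in cartilage and fin development, was at 7.53, 7.57 and 7.70 against 8.23, 8.11 and 8.15 (difference -0.56, SE 0.09, limma adjusted p = 0.0401). It was also lower at 96 hpf, at 7.28 against 7.78 and 7.94. All but lgals3bp.1 missed the threshold in 4 or 5 of the 6 fits that left out 1 array.

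The arrays at 96 and 48 hpf were separate from those at 72 hpf, so they test the same probe sets in other embryos. In the Gulfport array at 96 hpf, 47 of the 47 probe sets that had risen were above both controls of that age, against 29.5% of all probe sets tested, and 9 of the 9 that had fallen were below both, against 37.4%. Median differences were 0.92 and -0.45. These counts are not independent of the filter for tsku, f7i and pde6a. The gene tsku entered only through the Gulfport array at 96 hpf (6.33), which by itself placed it above both controls. Both f7i and pde6a entered only through controls at 96 hpf, which favoured a place below them. The other probe sets that passed reached 6 in an array at 72 hpf. At 48 hpf, 45 of 47 were higher than the control array, against 52.3% of all probe sets, and 8 of 9 were lower, against 47.6%, with medians of 0.72 and -0.47. In a fit of all groups, 9 probe sets passed as higher at 96 hpf (0.0918%), 8 of them among the 47, and none as lower (454 had an unadjusted p under 0.05 in limma). The spread in that fit came from the controls at 72 and 96 hpf. Its calls therefore share control arrays with those at 72 hpf and are not independent of them. When Gulfport was left out at 72 hpf, the 38 higher and 7 lower probe sets that then passed rested on Fort Morgan and Perdido Key only. Of these, 37 and 7 lay outside both controls in the same direction in the Gulfport array at 96 hpf, with medians of 1.07 and -0.39. The 7 include f7i and pde6a, for which the filter favoured this. In control embryos 39 of the 47 that rose were higher at 96 than at 72 hpf (median 0.45), as were 5 of the 9 that fell (median 0.05). Over all 9803 probe sets tested, 4266 were higher at 96 than at 72 hpf in controls (median -0.04).

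**Figure D2:**
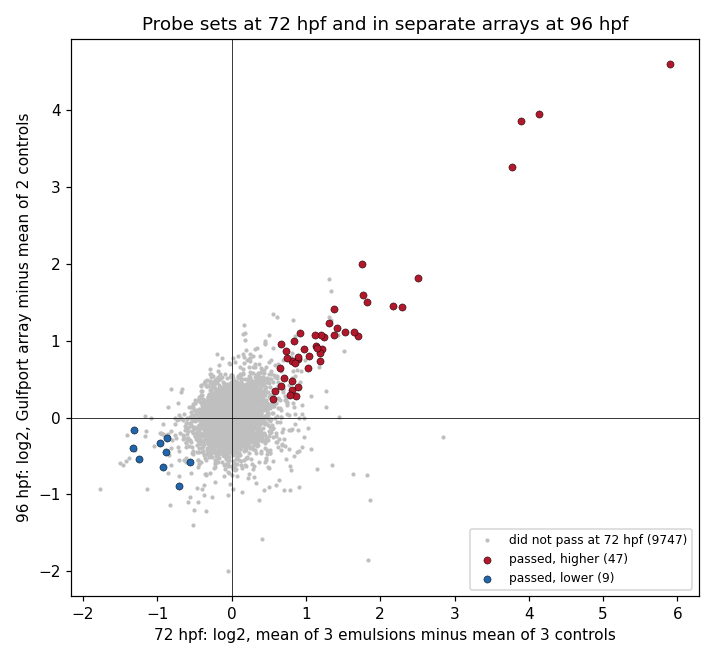
Each point is a probe set. The horizontal axis is the log2 difference between the means of the 3 emulsions and the 3 controls at 72 hpf, the vertical axis the log2 difference between the Gulfport array and the mean of 2 controls at 96 hpf; red and blue points passed at 72 hpf and grey points did not. All 47 red points lie above 0 on the vertical axis and all 9 blue points below it.

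**Figure D3:**
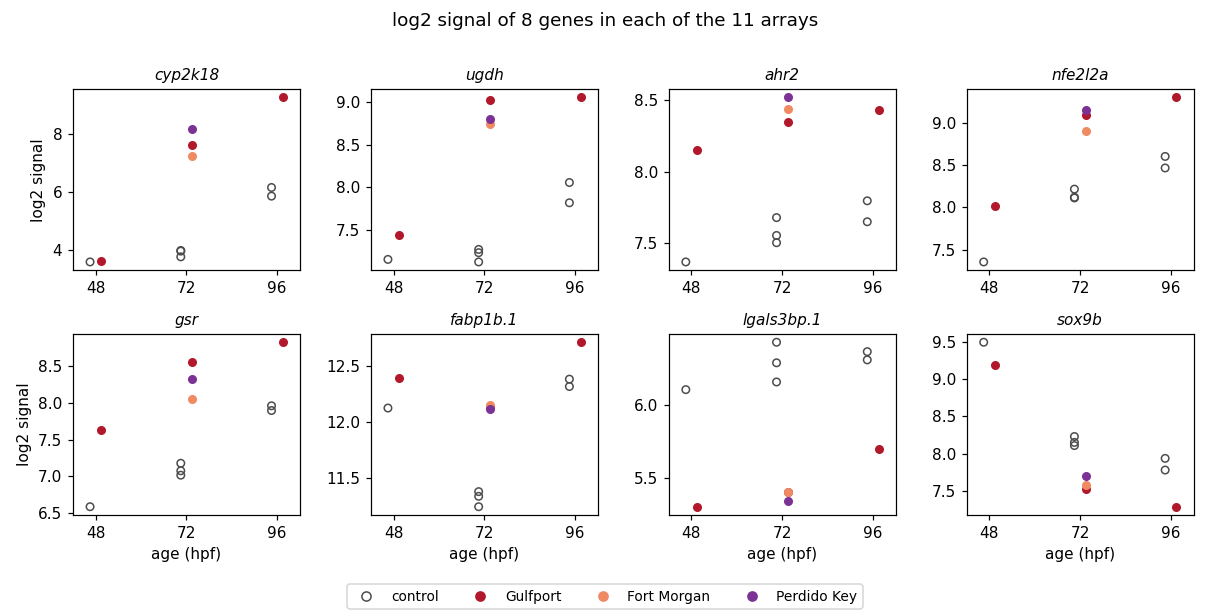
Each point is the log2 signal of 1 array at 48, 72 or 96 hpf, with open circles for controls and filled circles for the emulsions, for 8 of the genes that passed. At 48 hpf the control and Gulfport points of cyp2k18 coincide, whereas those of ahr2, nfe2l2a, gsr and lgals3bp.1 are apart at all 3 ages.

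Few genes of the tissue lists passed, and these lists are described by their counts and medians. Over all 6467 genes, 6.82% were higher and 7.22% lower without overlap, 2879 lay above 0 and 572 had an unadjusted p under 0.05 in limma. The tissue lists too were chosen with earlier results of these data known. In whole embryos, fewer cells of a type and less RNA per cell cannot be told apart. Of 13 measured genes of rod phototransduction 1 passed, 7 were lower without overlap (53.8%, against 7.22% of all genes) and 1 lay above 0. The list median was -0.61, with -0.78, -0.55 and -0.30 for Gulfport, Fort Morgan and Perdido Key. The one that passed, pde6a, encodes a subunit of the rod phosphodiesterase and was at 4.25, 3.95 and 4.25 against 4.90, 5.15 and 5.03 (difference -0.88, limma adjusted p = 0.0192). It reached 6 only in the controls at 96 hpf. The rod transducin gene gnat1 measured 6.61, 7.46 and 7.62 against 8.49, 8.78 and 8.81 and did not pass (limma adjusted p = 0.0549). Cone genes were less even: the medians over 19 genes were -1.06, -0.61 and 0.02, none passed in limma (5 at an unadjusted p under 0.05), and 2 were lower and 1 higher without overlap. Among 18 genes of the retinoid and visual cycle 4 were lower and 1 higher without overlap (median -0.06, none passed, 6 at an unadjusted p under 0.05). Of 6 lens genes 2 were lower without overlap (median -0.28, none passed, 1 at an unadjusted p under 0.05).

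Lists of the digestive organs differed among themselves. Of 20 measured genes of the exocrine pancreas, which makes the digestive enzymes, 13 were lower without overlap (65%, against 7.22% of all genes) and none higher. None passed in limma (13 at an unadjusted p under 0.05, against 572 of all 6467 genes). The list median was -0.41, with -0.55, -0.54 and -0.33 in the 3 emulsions. The trypsin gene prss1 measured 8.02, 8.95 and 9.40 against 9.79, 9.88 and 10.19 (limma adjusted p = 0.305). For cela1.6, which encodes an elastase, the exposed arrays were 1.99, 1.22 and 0.99 below the control mean (difference -1.40, limma adjusted p = 0.0999). The pancreas and rod lists were also those whose genes changed most with age among the lists of this paragraph and the one before: in control embryos their medians were 3.52 and 0.76 higher at 96 than at 72 hpf, against -0.03 over all genes. The part of age in these differences was not tested. Of 33 liver secreted proteins, 11 were lower (33.3%) and 2 higher (6.06%) without overlap. The gene f7i passed, and the list median was -0.23 (-0.36, -0.23 and -0.22). The antitrypsin gene serpina1l differed by -0.62 (limma adjusted p = 0.207) and the ceruloplasmin gene cp, which carries copper in plasma, by -0.61 (0.165). Of 31 genes of intestine and lipid absorption fabp1b.1 passed, and 5 were higher and 4 lower without overlap (median -0.01).

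Lists of nervous tissue and of cell division followed. Of 44 neuronal genes 1 lay above 0 and 9 were lower without overlap (20.5%), none higher. The median was -0.17, with -0.33 in Gulfport, -0.16 in Fort Morgan and -0.02 in Perdido Key. None passed in limma (6 at an unadjusted p under 0.05). The growth cone gene gap43 measured 9.26, 9.24 and 9.34 against 9.52 to 9.66 (difference -0.31, limma adjusted p = 0.335). At 96 hpf the neuronal median was 0.10 and thus of the other sign. Of 21 genes of glia and myelin epd passed, with 2 lower and 1 higher without overlap (median -0.02). Of 66 genes of DNA replication and the cell cycle 5 lay above 0, against 2879 of all 6467 genes. Without overlap 5 were lower (7.58%), close to the 7.22% of all genes. The list median was -0.13, and Fort Morgan, at 0.00, did not share it. None of these 66 passed in limma and 3 had an unadjusted p under 0.05. Of 31 Hox genes 6 were lower and 1 higher without overlap (median -0.10, none passed, 4 at an unadjusted p under 0.05).

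**Figure D4:**
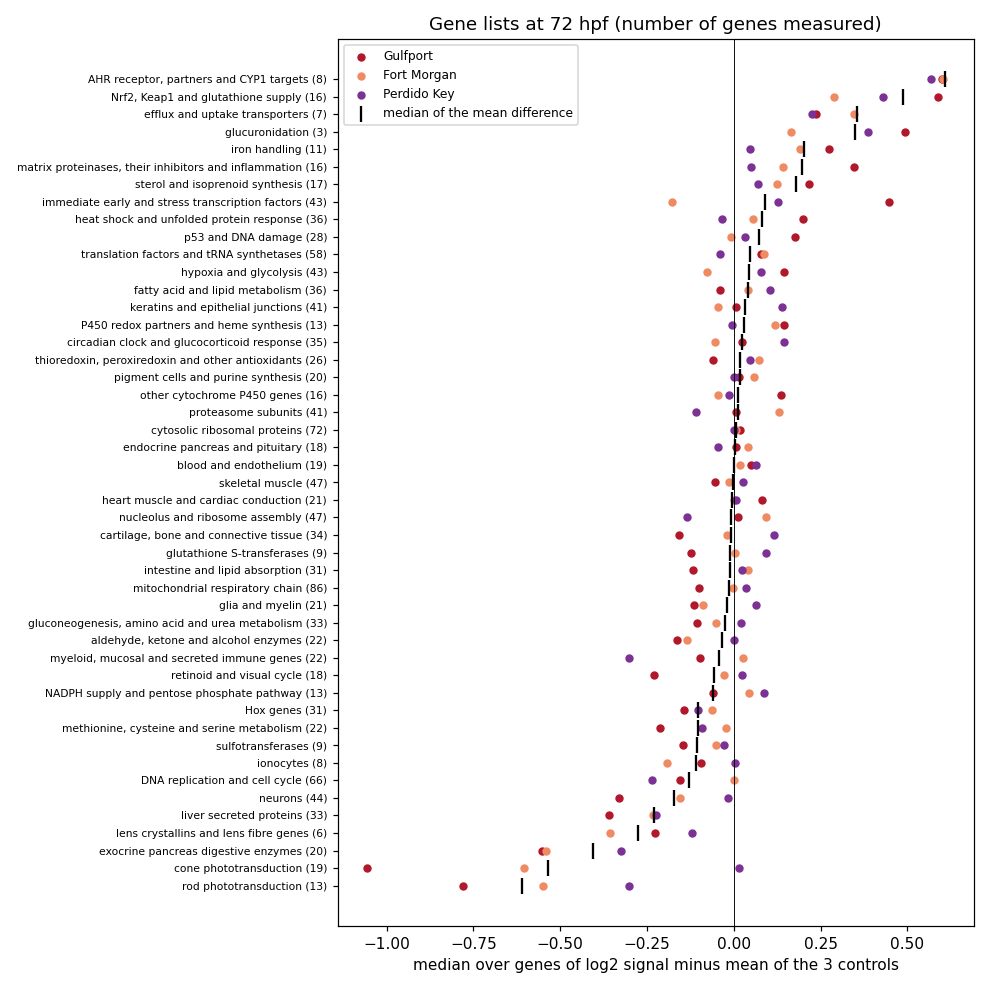
Rows are the 47 gene lists with the number of genes measured, and the horizontal axis is the median over a list of log2 signal minus the mean of the 3 controls. Coloured points are the 3 emulsions and the bar is the median of the mean difference. The lists were chosen with earlier results of these data known. The AHR and Nrf2 lists stand at 0.61 and 0.49 with all 3 emulsions above 0, the rod and pancreas lists at -0.61 and -0.41 with all 3 below 0, and the cone list spans from -1.06 to 0.02.

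Transport, iron and sterol lists had medians above 0. Of 7 measured efflux and uptake transporters 3 were higher without overlap and none lower (median 0.35). The transporter gene abcb5 measured 6.67, 6.61 and 6.69 against 5.67 to 6.17 and did not pass (difference 0.81, limma adjusted p = 0.0606); it was 1.28 and 0.84 higher at 48 and 96 hpf. Of 11 iron genes 3 were higher and 2 lower without overlap (median 0.20), and the ferritin heavy chain gene fthl27, which stores iron, differed by 0.69 (limma adjusted p = 0.232). Of 17 genes of sterol synthesis 15 lay above 0, against 2879 of all 6467 genes, and 3 were higher and none lower without overlap. Their median was 0.18, but at 96 hpf it was -0.32. None of these 3 lists had a gene that passed in limma, and 3, 5 and 2 of their genes had an unadjusted p under 0.05.

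Lists of general stress had medians from 0.01 to 0.20. Immediate early and stress transcription factors had medians of 0.45 with Gulfport, -0.18 with Fort Morgan and 0.13 with Perdido Key, and of 43 measured genes 6 were higher and 1 lower without overlap. Their gene atf3 was 1.82 above the control mean with Gulfport and 0.19 with Fort Morgan (limma adjusted p = 0.531). The activity-regulated genes npas4a and egr4 were lower without overlap (differences -1.77 and -1.30, limma adjusted p = 0.551 and 0.577). Control replicate 3 stood apart in both, at 8.77 against 6.18 and 5.79 for npas4a and 8.08 against 5.86 and 5.75 for egr4. Heat shock and unfolded protein genes had a median of 0.08 over 36 genes, with 2 higher (5.56%) and none lower without overlap. The p53 and DNA damage genes had 0.07 over 28, with 6 higher (21.4%) and 1 lower (3.57%). The 43 genes of hypoxia and glycolysis had a median of 0.04 (7 higher, 3 lower without overlap), the 16 of matrix proteinases and inflammation 0.20 (4 and 0), and the 41 proteasome subunits 0.01 (1 and 0). Differences within the matrix and inflammation list ranged from -0.07 to 2.84. No gene of these 6 lists passed in limma, and 6, 0, 2, 8, 4 and 2 of their genes had an unadjusted p under 0.05.

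Structural and housekeeping lists lay close to 0. None of 72 ribosomal protein genes was without overlap, and their medians in the 3 emulsions were 0.02, 0.01 and 0.00. Translation factors and tRNA synthetases (58 genes, median 0.05), nucleolar genes (47, median -0.01) and the mitochondrial respiratory chain (86, median -0.01) had 4, 1 and 2 genes without overlap. In these 4 lists none passed in limma, and 0, 0, 0 and 2 had an unadjusted p under 0.05. Skeletal muscle (47 genes, 2 higher and 3 lower without overlap), heart (21, 3 and 1) and blood and endothelium (19, 3 and 2, with the actin gene actb2 among them) had medians of 0.00, and 8 ionocyte genes, none without overlap, -0.11. No gene of these lists passed in limma either, and 3, 4, 3 and 0 had an unadjusted p under 0.05. Among 34 genes of cartilage, bone and connective tissue prrx1a rose and sox9b fell, with 6 higher and 2 lower without overlap (median -0.01). Keratins and junctions (41 genes) had 8 higher (19.5%) and 3 lower (7.32%) without overlap and a median of 0.03. On the lower side, krt15 and krt17 differed by -1.14 and -0.92 (limma adjusted p = 0.172 and 0.143). In the list 22 genes lay above 0, and the highest difference was 0.61. None of these 41 passed, and 12 had an unadjusted p under 0.05.

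Metabolic lists were mixed as well. Of 36 fatty acid and lipid genes 8 were higher and 5 lower without overlap (median 0.04), and the lipid droplet gene plin3 came closest to passing (difference 0.91, limma adjusted p = 0.0563). Gluconeogenesis, amino acid and urea genes had 2 higher and 5 lower of 33 (median -0.03), and methionine, cysteine and serine genes 1 and 2 of 22 (median -0.10). Clock and glucocorticoid genes had 2 higher and 0 lower of 35 (median 0.02), pigment and purine genes 2 and 1 of 20 (median 0.02), and endocrine genes 0 and 1 of 18 (median 0.00). The NADPH list had a median of -0.06. No gene of the first 6 of these lists passed in limma, and 8, 5, 4, 4, 2 and 1 had an unadjusted p under 0.05.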

How the data were processed

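Total RNA of whole zebrafish embryos, all 30 of a cup per array, was hybridized to Affymetrix zebrafish arrays. Values were deposited as log2 signals per probe set, made by the authors with RMA per the submitters' processing notes; the version is not given in the sources used here. This method equalises the distributions of the arrays, which hides any change in total RNA of the embryos, and it compresses differences of dim probe sets.

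Groups were taken from the titles. Of 15617 probe sets, 115 AFFX controls were left out and the 9803 with log2 of at least 6 in at least 1 of 11 arrays were tested with limma 3.58.1 (lmFit, eBayes) in R 4.3.3, 3 exposed against 3 control arrays at 72 hpf, with Benjamini-Hochberg adjustment over all 9803. The 96 hpf contrast came from a fit with 1 mean per group over 11 arrays; there the lone exposed array is taken to have the spread of the controls. The 48 hpf pair was described without a test. Symbols came from the platform annotation, updated through RefSeq (GRCz12tu): 7571 tested probe sets had 1 symbol, 79 several and 2153 none, and the 6467 genes were each represented in lists by the probe set of highest mean. Genes were named if they passed. Others were eligible by the rules that follow, and not every eligible gene is given above. From each of 47 lists (1262 genes tested), up to 4 members without overlap and of largest difference were eligible. So were the 10 genes in each direction of largest smallest difference among the emulsions, and the 10 next in rank. The members and lists were chosen with earlier results of these data known. The fit was tested on simulated data. Alternatives changed the filter, scaling, moderation, array weights, source of the spread, array class and each array left out. The number of arrays limits the precision. Figures used Python 3.11.15, pandas 2.3.3 and matplotlib 3.10.9. Promoter sequences and genome positions were not analysed here.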

Additional observations from a re-analysis of the deposited data

Results flagged for a closer look

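The results here moved one way in all exposed arrays at 72 hpf, relative to every control of that age, and the other way at another age, among named genes and unnamed probe sets described above whose log2 difference at 72 hpf was 0.5 or more in size. No such difference between ages was tested, the exposure windows differ, and at 48 hpf each side has 1 array. At 48 hpf, 3 probe sets that passed at 72 hpf had the opposite sign: cyp3a65 at -0.0269, DrAffx.2.65.A1_at at -0.105, and pde6a at 0.002, all dim at that age. The brighter probe set of cyp3a65, which did not pass at 72 hpf, was 0.12 higher at 48 hpf. The other genes did not pass at 72 hpf. Genes that were lower at 72 hpf were higher at 48 hpf by 0.55 (cpa4), 0.44 (cela1.6) and 0.0549 (ctrl) among pancreas enzymes, and by 0.39 for the connexin gene gjb8 and 0.16 for the rod gene rom1b. Genes that were higher at 72 hpf differed at 48 hpf by -0.39 (cldnb, a claudin), -0.29 (plac8.1), -0.25 (pfkfb3, a regulator of glycolysis), -0.18 (pdk2b), -0.12 (sgk1), -0.0833 (tm4sf4) and -0.0164 (gadd45aa). At 96 hpf, 5 genes lay on the other side of both controls. The retinol dehydrogenase gene rdh1 and the gene defbl1 were lower at 72 hpf and 0.37 and 0.14 higher at 96 hpf, while plac8.1, pfkfb3 and cldnb were higher at 72 hpf and differed by -0.36, -0.26 and -0.32 at 96 hpf.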

How the results depend on the processing

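At 72 hpf the count that passed (56, with 47 higher and 9 lower) stayed between 48 and 72 under no filter, a filter at log2 7, median centring, repeated quantile normalization, a variance trend with robust moderation, array weights, and array class as a block, a setting chosen after seeing the data; the filter at log2 7 left 4 lower. With the spread taken from controls only it was 129 (92 higher, 37 lower). Within the 4 arrays of the class of higher lower quartile, also chosen after seeing the data, 11 passed (11 higher, 0 lower), on fewer arrays. Leaving out 1 array gave 23 to 83 in all, 22 to 58 higher and 1 to 25 lower. At 96 hpf (9 higher, 0 lower), no filter gave 18 higher, and a variance trend with robust moderation 25 higher and 1 lower; leaving out 1 control gave 5 to 6 higher and 1 to 8 lower. The causes were not tested. None of the 56 probe sets changed sign where it was tested (the filter at log2 7 removed 7 of them); 4 to 34 lost their call when 1 array was left out, 45 within the class, and 0 to 6 of those tested under the other settings. Of 376 recomputed list medians, 48 changed sign and 23 moved by more than 1 SD of the 3 emulsions. The changes of sign fell in 21 lists, and the largest median among these lists was 0.0896 in size. No paired analysis was possible because the exposed arrays carry no replicate number. The planned search of promoter motifs was not run. Depth does not apply to arrays; dim probe sets such as cyp2k18 and pde6a are limited by signal over background.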

Other observations

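Among genes that did not pass, several were higher by at least 1 in all 3 emulsions or stood next in rank. The uncharacterised si:ch211-207n23.2 and si:dkey-247k7.2 differed by 1.34 and 1.31 at 72 hpf (limma adjusted p = 0.0591 for both) and by 1.27 and 1.31 at 96 hpf. The translocator protein gene tspo, whose product sits in the outer mitochondrial membrane, differed by 0.99 (limma adjusted p = 0.0621), with exposed values of 9.58, 9.52 and 9.11 against controls of 8.16, 8.37 and 8.71. The scavenger receptor gene scarb1, which takes up lipoprotein cholesterol, differed by 0.57 (0.0591), and ciapin1, which acts in iron-sulfur cluster assembly, by 0.52 (0.0576). On the lower side, the keratin gene krt94 and the connexin gene gjb8 differed by -0.52 and -0.55 (limma adjusted p = 0.0895 and 0.09), and the carboxypeptidase gene cpa4 by -0.61 (0.0949).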
